A study of Mus with 16 samples.

Results

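The comparison set tumours of wild-type (WT) mice given an antibody against PD-L1 beside untreated tumours of B cell-depleted mice, so that each side carried 1 perturbation and the groups shared neither. It used 8 of the 16 libraries of the series, chosen by label: 4 of WT tumours treated with anti-PD-L1 and 4 of B cell-depleted untreated tumours. All came from B16 melanoma grown under the skin of C57BL/6 mice, female and 6 to 8 weeks old per the methods of the study, and each library came from 1 tumour of a separate mouse. Tumours were left to grow for 7 days, antibody followed in 3 doses spaced by 3 days, and collection was 3 days after the last dose. Untreated WT tumours, 4 libraries, are given beside both groups as the point that each perturbation departs from, and the other 4 libraries, of B cell-depleted tumours given the antibody, entered the fit to estimate the spread. The label of the second group is B cells depleted, while its columns are named BKO. Whether these mice were knockouts or had received a depleting antibody is not stated for them. The design text also mentions 3M-052, an agonist of TLR-7/8, or its control, which no label of a sample gives. Untreated mice had no control antibody in the labels. Groups therefore differed in B cells and in treatment at once, and a difference between them cannot be assigned to either alone without the untreated WT level. Libraries are named by group and by the letter, A to D, of their column.

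PD-L1 is a ligand on tumour and myeloid cells that binds PD-1 on T cells and restrains them, and antibodies against it release that restraint. B cells make antibody, present antigen to T cells and secrete cytokines, and they are usually a small part of a B16 tumour. B16 is a mouse melanoma line known for its pigment genes and for few infiltrating lymphocytes, and tumour RNA is therefore mostly RNA of the melanoma cells. The question was how far blocking PD-L1 in mice with B cells and removing B cells without treatment led to different tumour transcriptomes. In bulk RNA, fewer cells of a type and less RNA per cell cannot be told apart.

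The labels were checked first with Igkc, the constant region of the kappa light chain of antibodies (mm10, chromosome 6, 70726435 to 70726757). Antibody-treated WT libraries A to D held 13, 1, 3 and 9 Igkc counts, and the 4 depleted libraries held none. Levels are given as CPM, which is counts per 1 M of the library total (M is the usual mega prefix). The 26 counts in 115.1 M made 0.226 CPM over the pooled antibody group. A count of 0 in 104.0 M puts the limit of the depleted group at 0.0288 CPM (3 counts over the group, for counting error only). The pooled level was 7.83-fold that limit, which does not hold for each library, since antibody library B had 1 count in 35.6 M. By library the antibody group had 0.240 ± 0.203 CPM (SD, n = 4). The two-sided p for Igkc was 0.0286 in an exact permutation test, which is the lowest value that 4 against 4 libraries allow (70 splits), and 0.0571 without any 1 library. Untreated WT tumours held 39 Igkc counts. The 12 measured immunoglobulin and plasma cell genes summed to 156 to 205 CPM with antibody and 163 to 198 CPM in the depleted group. Of the 5 with enough counts to be tested, 1 had a higher estimate with antibody, and the median log2 difference was -0.101. At an unadjusted p under 0.05, 0 of the 5 were higher and 0 lower (4.66% and 8.37% of all genes). Of the 8 B cell genes with enough counts to be tested, 3 had a higher estimate with antibody and 5 a lower one. Cd79a, a chain of the B cell receptor, had 102 counts with antibody and 77 in the depleted group (log2 0.29 ± 0.37, adjusted p = 0.758), and Bank1, a B cell scaffold protein, had 3760 and 2138 (0.55 ± 0.26, adjusted p = 0.382). Cd22, an inhibitory receptor of B cells, was lower with antibody, at 0.613, 0.884, 0.537 and 0.505 CPM against 1.42, 2.62, 1.79 and 3.08 CPM (log2 difference -1.79 ± 0.42, SE, adjusted p = 0.115). The log2 table that the authors deposited put that difference at -0.68.

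The pigment cell identity of the tissue was clear in both groups. The 20 melanocyte genes summed to between 28600 and 31500 CPM with antibody and between 27400 and 30500 CPM in the depleted group. Genes that define T cells were near the limit of detection: Cd3e had 6 counts with antibody and 27 in the depleted group, Cd8a 10 and 1, and Trac 1 and 3, each over 4 libraries. Only 5 of the 17 T cell genes had enough counts to be tested. Of these 5, 4 were bounded within 2-fold. The median log2 difference over the 5 was -0.107, and 1 of them had a higher estimate with antibody. At an unadjusted p under 0.05, 1 was higher and 1 lower (4.66% and 8.37% of all genes). The gene with the higher estimate was Cd28, a co-stimulatory receptor (log2 0.61 ± 0.17, adjusted p = 0.154). Without depleted library B, which is described next, Cd28 was called higher and 1 other gene lower (10.3% and 7.89% of all genes).

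Total counts ran from 25.7 to 35.6 M with antibody and from 15.7 to 34.3 M in the depleted group. Library B of the depleted group stood furthest apart from the other libraries of the series. Its log2 CPM correlated with the other 15 libraries at 0.899 to 0.968, highest with antibody library D, against 0.925 to 0.991 for all other pairs. The lowest of those other pairs was antibody library D with depleted library D. Depleted library B was also the shallowest of the 8. The GC slope, which is the change in log2 CPM of a gene relative to its mean over libraries per 10 percentage points of GC content of the gene, was -0.720 in that library. It was 0.286, -0.104 and 0.321 in depleted libraries A, C and D and -0.089, -0.177, -0.246 and -0.459 in antibody libraries A to D. The mean slopes were -0.243 ± 0.158 with antibody and -0.054 ± 0.484 in the depleted group (SD, n = 4), and the difference of -0.189 gave an exact two-sided permutation p of 0.514. Without library B the difference was -0.411 (exact permutation p = 0.114, 4 against 3 libraries). The scatter within groups differed too. The median SD of log2 CPM over genes was 0.416 in the depleted group, 0.245 with antibody and 0.173 in untreated WT tumours. Counts of called genes are therefore given with and without library B, and single genes where it decided the value.

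Libraries correlated less between the groups than within the antibody group. Correlations of log2 CPM across genes, which are not independent replicates, ran from 0.925 to 0.983 over the 16 pairs between the groups, with a median of 0.960, or 0.963 without depleted library B. Within the antibody group they ran from 0.964 to 0.989 (median 0.982), and within the depleted group from 0.899 to 0.988 (median 0.963) or, without library B, from 0.968 to 0.988, so that without it the median between the groups lay below every pair within them. Untreated WT libraries correlated at 0.934 to 0.985 with the antibody group and at 0.906 to 0.979 with the depleted group. On the first principal component, 44.77% of the variance, the groups overlapped, since depleted libraries A to D scored -28.2, 89.5, 18.2 and -33.2 and the antibody libraries between 7.43 and 59.3. On the second, 13.2% of the variance, they did not: antibody libraries scored 27.3, 12.1, 13.7 and 4.69, and depleted libraries -19.8, -18.1, -14.8 and -38.6. Untreated WT libraries scored between 8.996 and 23.7 on it, on the side of the antibody group.

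Gene by gene, no difference between antibody alone and B cell loss alone passed the test with all libraries. The quasi-likelihood test of edgeR was run on the counts of 19340 genes, and a gene is called at a Benjamini-Hochberg adjusted p under 0.05. The called share was 0% (0 of 19340), with the lowest adjusted p at 0.0703. At an unadjusted p under 0.05 there were 2520 genes (13%), 902 higher with antibody (4.66%) and 1618 lower (8.37%). In 1061 genes (5.49%) the 4 and 4 libraries did not overlap, 437 higher with antibody (2.26%) and 624 lower (3.23%). DESeq2 called 384 genes (1.99%), 127 higher (0.657%) and 257 lower (1.33%), voom called none (3024 at an unadjusted p under 0.05) but 5474 with quality weights for libraries, and the fit of the 8 libraries alone called none (1630).

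That count depended on 1 library. With depleted library B left out, edgeR called 3527 genes (18.2%), 2001 higher with antibody (10.3%) and 1526 lower (7.89%). Leaving out depleted A, C or D gave 5, 12 and 0, and leaving out an antibody library gave 0, 0, 0 and 11. Among the genes behind the count of 5, all lower with antibody and named after the values were seen, were Lce1d, Xirp2 and the pseudogenes Gm11483 and Rpsa-ps9. When library B was left out and only the 7 libraries compared were fitted, 4 genes passed, named after their values were seen: Gnb1l and Gm15564 were higher with antibody, and ERDR1 and Neat1 were lower. Neat1 is the long non-coding RNA of nuclear paraspeckles.

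**Figure D1:**
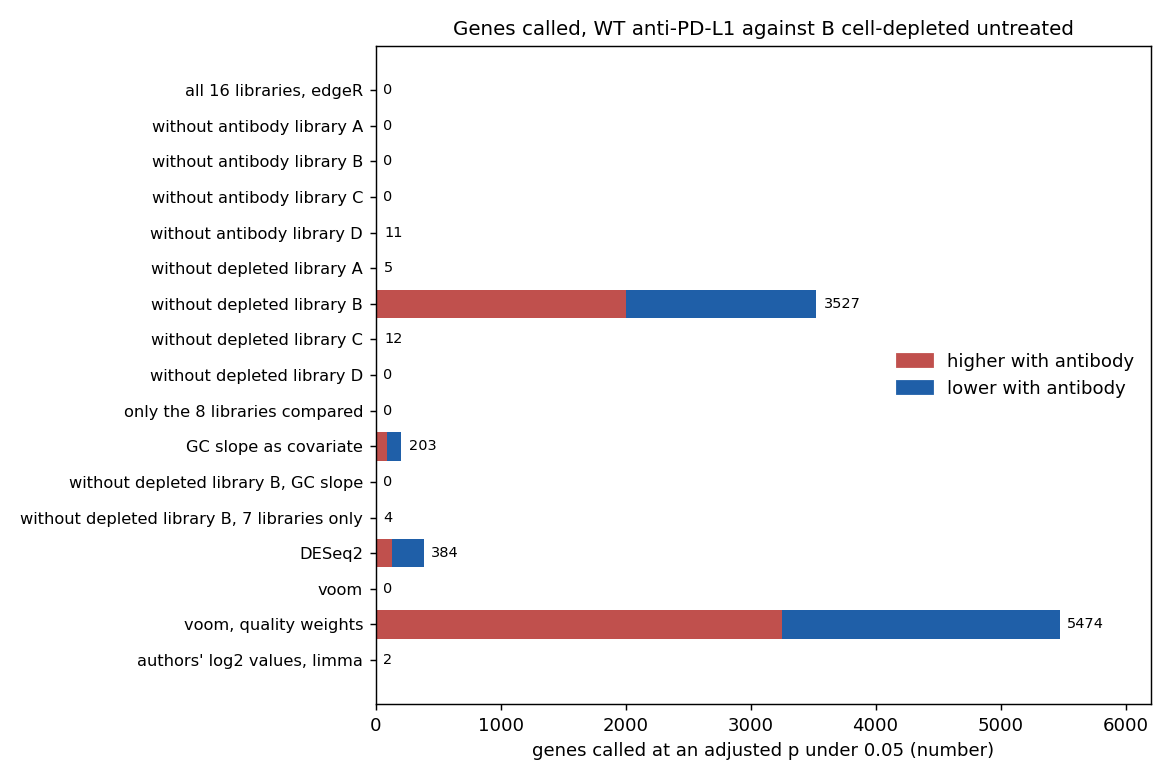
Number of genes called at an adjusted p under 0.05 between WT anti-PD-L1 and B cell-depleted untreated tumours, under each fit named on the left. Red bars are genes higher with antibody and blue bars genes lower. The bar without depleted library B reaches 3527 genes, while the fit of all 16 libraries has 0 and the fit without library B but with the GC slope has 0.

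The difference between the groups moved with the GC content of genes. With all libraries, the median log2 difference ran from 0.15 in the 1934 genes with the lowest GC content (median 38.4%) to -0.20 in the 1934 with the highest (median 56.4%). Without library B it ran from 0.39 to -0.36. Genes called without library B had a median GC content of 41.2% where they were higher with antibody and 51.6% where they were lower, against 46.4% over all genes tested, and their median spans were 29.5 and 10.7 kb against 17.8 kb. With the GC slope of each library as a covariate and all libraries, 203 genes were called (1.05%), 94 higher with antibody (0.486%) and 109 lower (0.564%), and 125 of them (61.6%) were among the 3527, which is 3.54% of those. With library B left out and the GC slope fitted together, 0 genes were called, and 2363 had an unadjusted p under 0.05. The slopes of all 4 antibody libraries were negative and those of depleted A and D positive, so that without library B the slope and the group cannot be fully told apart. The part of the slope in the calls was not tested beyond these fits.

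**Figure D2:**
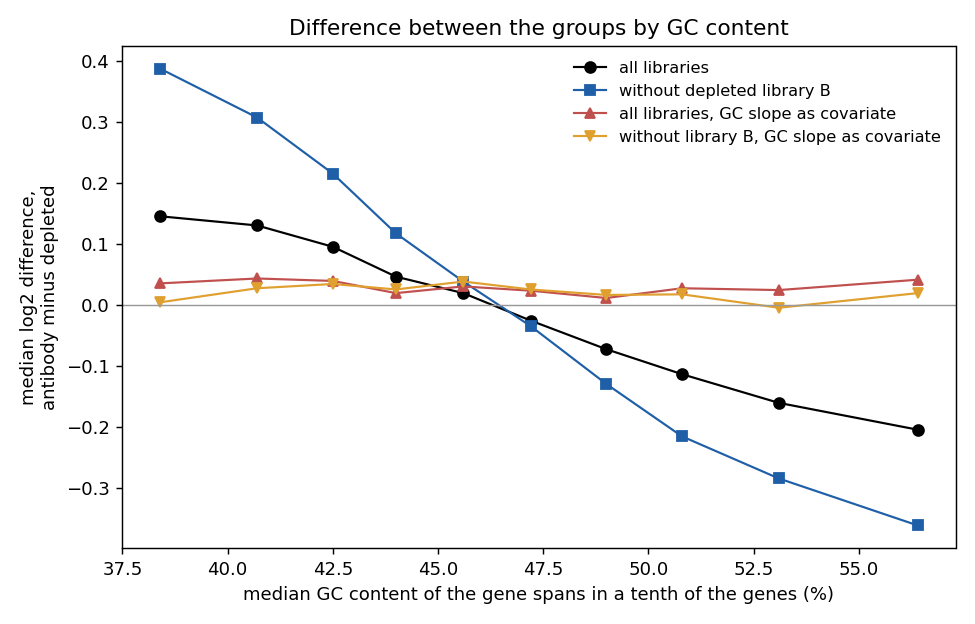
Median log2 difference (WT anti-PD-L1 minus B cell-depleted untreated) in 10 bins of 1934 tested genes ordered by GC content, against the median GC content in percent. Black circles (all libraries) run from 0.15 to -0.20 and blue squares (without depleted library B) from 0.39 to -0.36, while both fits with the GC slope as covariate stay between -0.004 and 0.044. The covariate is the slope on GC content taken from the same counts, so the flat course of these fits is built in.

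A test that calls nothing does not show that the groups are alike, so the 95% interval of each log2 difference was read as well. In 13742 genes (71.1%) the whole interval lay within 1 log2 unit of 0, which bounds the difference to less than 2-fold. It lay wholly beyond 2-fold in 25 genes, and 3 genes had no interval. The median absolute log2 difference was 0.21, the median distance from the estimate to either end of its interval 0.48, and 793 genes had an estimate beyond 2-fold. Without library B, 12522 genes (64.7%) were bounded within 2-fold and 68 lay wholly beyond it.

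Since no gene was called, the genes named next were chosen after their values were seen: the 12 protein-coding genes with the lowest p in each direction whose libraries did not overlap, with a mean of at least 1 CPM and under 50% of the span inside other genes. Of the genes tested, 245 that were higher and 322 that were lower met the conditions other than rank. The choice fixes that their libraries do not overlap and that they lie low in p, so neither is evidence. Adjusted p-values of the 24 ran from 0.0703 to 0.123. The counts cover whole gene spans, introns included, and the log2 table of the authors gives a second value for each gene. In 18 of the 24 genes the values differed by at most 0.5 on the log2 scale, and in 6 by more.

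Among genes lower with antibody, a zinc finger gene stood first. Zfp575 (chromosome 7, 24583838 to 24587641) had 9.26, 12.1, 11.3 and 8.45 CPM in antibody libraries A to D and 23.6, 17.9, 21.2 and 23.3 CPM in depleted libraries A to D. It was 2.09-fold lower with antibody (log2 -1.06 ± 0.18, SE, adjusted p = 0.0703), and the table of the authors gave -1.13. Untreated WT tumours, at 9.11 to 15.6 CPM, overlapped the antibody group and lay below every depleted library. Against untreated WT it was called in the depleted group (log2 0.80 ± 0.18, adjusted p = 0.0469) and not with antibody (-0.26 ± 0.18, adjusted p = 0.356). Izumo4, of the family of the sperm protein Izumo1, was low in both groups, with 0.397, 0.691, 0.460 and 0.542 CPM against 1.86, 1.02, 1.91 and 2.07 CPM (log2 -1.71 ± 0.31, adjusted p = 0.0703). Its untreated WT level was 0.693 ± 0.274 CPM (SD, n = 4), with 1 library above depleted library B, and B cell loss against it was called (log2 1.32 ± 0.30, adjusted p = 0.0469).

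Galectin-1 was the abundant gene of this set for which the antibody group was the one apart. Lgals1 encodes a secreted lectin that binds glycans on T cells and other cells (chromosome 15, 78926725 to 78930465). It had 461, 516, 524 and 309 CPM with antibody and 798, 814, 1146 and 1318 CPM in the depleted group (log2 -1.17 ± 0.23, adjusted p = 0.106). Untreated WT tumours had 847 to 1141 CPM, within the range of the depleted libraries and above all antibody libraries. Against untreated WT the log2 difference was -1.10 ± 0.23 with antibody (adjusted p = 0.0765) and 0.07 ± 0.23 with B cell loss (adjusted p = 0.879). Comtd1, a methyltransferase domain protein of mitochondria, had 11.8, 10.1, 11.3 and 7.11 CPM with antibody, 20.6, 14.6, 15.6 and 31.0 CPM in the depleted group and 22.97 to 28.5 CPM in untreated WT tumours. Of its span, 45.5% lies inside another gene, so its reads cannot be assigned to it alone.

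For Rpsa, Ndufa2 and Mpv17l2 both tables gave like values. Rpsa, a protein of the small ribosomal subunit that was first described as a laminin receptor (chromosome 9, 120127766 to 120132369), had 534, 575, 587 and 398 CPM with antibody and 761, 933, 847 and 1004 CPM in the depleted group, with untreated WT tumours between them at 640 to 756 CPM. Its log2 difference was -0.76 ± 0.15 (adjusted p = 0.106), and reads of its processed pseudogenes may be shared with it. Ndufa2, a subunit of respiratory complex I, had 44.6 to 60.5 CPM with antibody and 77.6 to 117 CPM in the depleted group (log2 -0.80 ± 0.17, adjusted p = 0.112). Mpv17l2, a protein of mitochondrial ribosome assembly, had 22.1 to 31.6 CPM and 39.1 to 64.8 CPM (log2 -0.80 ± 0.17, adjusted p = 0.112), with untreated WT at 43.0 to 50.7 CPM. Hrct1 (log2 -1.38 ± 0.29) and Arl5c, a small GTPase of the Arf family (-1.47 ± 0.32), were low in both groups, at 0.505 to 1.76 CPM with antibody and 1.33 to 5.64 CPM in the depleted group. Values for the remaining genes lower with antibody differed between the tables. Tmem63c, of a family of ion channels (log2 -2.10 ± 0.37), was at -0.089 there, Rnls, which encodes renalase (-1.95 ± 0.41), at -0.23, and Rspo2, a secreted activator of Wnt signalling (-1.79 ± 0.38), listed at 0 in all 8 libraries compared, so that the table gives no value to set beside the counts.

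Among genes higher with antibody, Slc7a11 came first by p. It encodes the cystine and glutamate exchanger that feeds glutathione synthesis and, in mouse melanocytes, the making of yellow pigment (chromosome 3, 50364936 to 50443613). Antibody libraries A to D had 48.3, 58.3, 46.4 and 75.9 CPM and depleted libraries A to D had 31.2, 26.99, 33.5 and 27.9 CPM, so that the lowest antibody library lay above the highest depleted one. The log2 difference was 0.94 ± 0.17 (1.91-fold, adjusted p = 0.103), and the table of the authors gave 0.88. Untreated WT tumours lay between the groups without overlap, at 37.1 to 43.7 CPM, with log2 differences of 0.49 ± 0.17 for antibody (adjusted p = 0.114) and -0.45 ± 0.17 for B cell loss (adjusted p = 0.182).

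Cd36 and Lpl, which act in the uptake of fatty acids, were highest with antibody. Cd36, a fatty acid translocase and scavenger receptor (chromosome 5, 17781690 to 17888959), had 10.4, 8.43, 11.2 and 4.91 CPM with antibody, 3.94, 4.72, 3.14 and 2.42 CPM in the depleted group and 1.83 to 3.48 CPM in untreated WT tumours. The log2 difference between the groups was 1.31 ± 0.32 (adjusted p = 0.115), 1.34 in the table of the authors, and against untreated WT it was 1.68 ± 0.32 with antibody (adjusted p = 0.0644). Lpl, lipoprotein lipase, named as a member of the list of fatty acid uptake, had 5.77, 5.55, 7.21 and 5.52 CPM against 3.89, 3.83, 2.10 and 3.19 CPM (log2 0.89 ± 0.25, adjusted p = 0.154), with 1.77 to 2.56 CPM in untreated WT. Of the 12 tested genes on that list, 3 were higher and 3 lower at an unadjusted p under 0.05 (4.66% and 8.37% of all genes). The median was -0.12. Slc27a1, a fatty acid transporter, and Plin4, a lipid droplet protein, had estimates of the opposite sign, at -0.86 ± 0.31 and -1.32 ± 0.40, and the table of the authors put Plin4 at 0.051.

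Other genes differed in where the untreated WT level lay. Gm5434 had 1.91 to 3.75 CPM with antibody, 1.21 to 1.57 CPM in the depleted group and 2.85 to 3.98 CPM in untreated WT tumours, and B cell loss against untreated WT was called (log2 -1.28 ± 0.23, adjusted p = 0.0186). Enc1, an actin-associated kelch protein, had 65.9 to 91.5 CPM with antibody, 35.1 to 54.0 CPM in the depleted group and 50.8 to 77.6 CPM in untreated WT, which overlapped both groups. Lonrf1, a RING finger protein, had 38.8 to 42.3, 24.2 to 32.7 and 34.9 to 43.3 CPM in the same order, with untreated WT above the depleted group. Iqgap2, a scaffold of the actin cytoskeleton, had 22.6 to 34.4 CPM with antibody, 17.3 to 21.8 CPM in the depleted group and 14.9 to 19.5 CPM in untreated WT, which overlapped the depleted group and lay below the antibody group. Zfp871, Zfp445 and Gtf3c3, a subunit of transcription factor TFIIIC, had log2 differences of 0.96 ± 0.24, 0.96 ± 0.25 and 0.60 ± 0.16, with 0.94, 0.97 and 0.62 in the table of the authors. Gnb1l, Lrrc66 and Tsga10 had 1.42 ± 0.31, 1.62 ± 0.35 and 1.12 ± 0.27 in the counts and -0.14, 0.51 and 0.57 in that table.

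**Figure D3:**
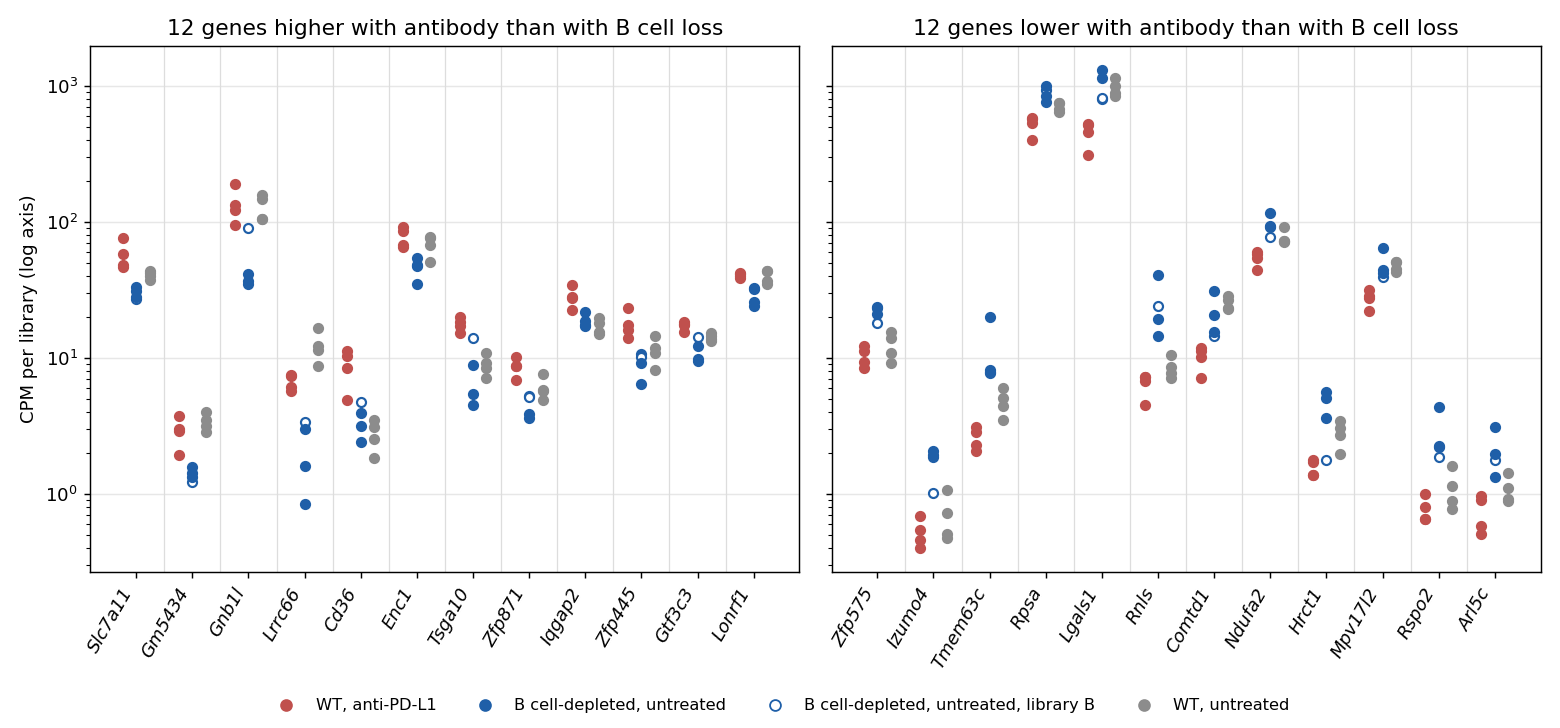
CPM of the 24 named genes in each library on a log axis, 12 higher with antibody on the left and 12 lower on the right. Red points are WT anti-PD-L1, blue points B cell-depleted untreated with library B as an open circle, and grey points untreated WT tumours. For Lgals1 the grey points (847 to 1141 CPM) lie with the blue ones, and for Zfp575 (9.11 to 15.6 CPM) with the red ones.

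All 24 genes were called without library B (18.2% of all genes) and by DESeq2 (1.99%). With the GC slope 18 of them were called (7 higher, 11 lower, beside 1.05% of all genes), and 0 with library B left out and the GC slope fitted. No direction turned in those 4 fits. The genes were picked for a low p in the same counts, so these calls and directions are not separate evidence. Untreated WT libraries overlapped the antibody group in 6 of the 12 genes higher with antibody and in 5 of the 12 lower, and overlapped the depleted group in 7 and in 7. These overlaps describe the picked genes only, and no share over all genes is given. Against untreated WT, edgeR called 1 gene with antibody (0.00517% of 19340) and 172 genes with B cell loss (0.889%), 41 higher and 131 lower. Both comparisons share the untreated WT libraries, and whether the counts differ was not tested. When each was fitted on its own 8 libraries the order turned, with 5378 genes called with antibody and 0 with B cell loss (3035 at an unadjusted p under 0.05). The first count was 4234 when depleted library B was left out of the shared estimate of spread and 0 when an untreated WT library was, and the second was 175 without library B and between 22 and 51 without an untreated WT library.

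**Figure D4:**
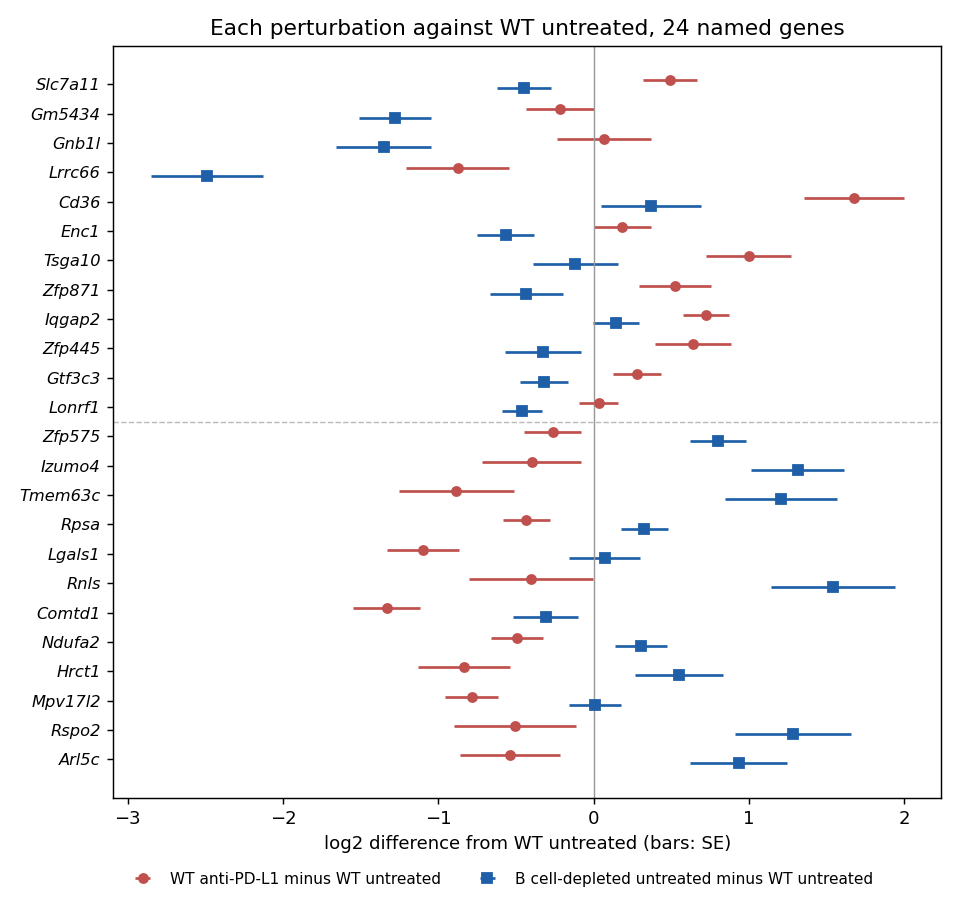
Log2 difference of the 24 named genes from untreated WT tumours, in WT anti-PD-L1 tumours (red circles) and B cell-depleted untreated tumours (blue squares), with the SE as bars. The dashed line separates the 12 genes higher with antibody (top) from the 12 lower. Lgals1 is at -1.10 with antibody and 0.07 with B cell loss, and Slc7a11 at 0.49 and -0.45.

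Some genes, picked after their values were seen, had both groups on the same side of untreated WT tumours. The gene called with antibody was Stoml2, a stomatin-like protein of the inner mitochondrial membrane (chromosome 4, 43027690 to 43031710), singled out after its values were seen. It had 30.8, 27.8, 25.1 and 22.7 CPM with antibody, 29.9, 21.3, 26.6 and 30.9 CPM in the depleted group and 48.8, 49.8, 52.2 and 46.9 CPM in untreated WT tumours. Both groups overlapped each other and lay below every untreated WT library. It fell by 0.89 ± 0.13 on the log2 scale with antibody (adjusted p = 0.0492) and by 0.86 ± 0.13 with B cell loss (adjusted p = 0.0101), and the groups differed by -0.03, with an interval of -0.31 to 0.24. The table of the authors gave -0.83 for B cell loss and -0.094 between the groups. Both falls are measured from the same 4 untreated WT libraries. The call with antibody was made in 15 of 34 fits. The fit on the libraries compared enters these counts both with and without depleted library B, which it does not hold. The call was lost with the GC slope (-0.66, adjusted p = 0.0511), in the log2 table (adjusted p = 0.101) and without any 1 untreated WT library, while the log2 difference ran from -0.97 to -0.41.

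The 10 protein-coding genes with the lowest p for B cell loss against untreated WT, under the same conditions on overlap and level and again chosen after the values were seen, were read in the same way. They were picked for the distance of the depleted group from untreated WT, which bears on its difference from the antibody group too. In 4 of the 10 the interval between the groups included 0 (Stoml2, Sf3b4, Cdk8 and Pla2g4e), and in 6 it did not, among them Lrrc66 (0.87 to 2.36), Gm5434 (0.58 to 1.55), Adcy2, an adenylyl cyclase (0.22 to 0.86), and Sectm1a (-1.04 to -0.17). Over all genes 13% had an unadjusted p under 0.05 between the groups. None of the 10 was called between the groups. Sf3b4, a splicing factor of the U2 particle, had 37.8 ± 9.5 CPM with antibody, 34.7 ± 2.3 CPM in the depleted group and 60.3 ± 4.1 CPM in untreated WT (SD, n = 4). It fell with B cell loss (log2 -0.80 ± 0.15, adjusted p = 0.0221), the value with antibody was -0.67 ± 0.15 (adjusted p = 0.0765), and between the groups it was bounded between -0.19 and 0.44. Cdk8, the kinase of the Mediator complex, had 301 to 345 CPM with antibody, 112 to 435 CPM in the depleted group and 580 to 1136 CPM in untreated WT. Its interval between the groups, -0.247 to 1.07, was not bounded within 2-fold. Pla2g4e, a phospholipase, had 50.8 to 57.7, 45.3 to 52.1 and 70.7 to 77.8 CPM in the same order. The table of the authors put the B cell loss difference of Cdk8 at 0.026 and that of Pla2g4e at 0.59, against -1.80 and -0.58 in the counts. That table also turned the direction of B cell loss for Lrrc66, C230081A13Rik and Sectm1a, with values given at the end.

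Gene lists, chosen with earlier results of these data known, were described by their counts and medians, beside a median of -0.016 over all genes tested. No list member was called by edgeR with all libraries and no covariate. With the GC slope, 1 was called in each of the B cell, regulatory T cell, chemokine and respiratory chain lists, and 3 in the ribosomal list. All of these were lower with antibody (0.564% of all genes). Genes of the cell cycle had a median of 0.25 over 30 genes, 7 higher and 0 lower at an unadjusted p under 0.05 (4.66% and 8.37% over all genes), and 12 higher and 0 lower called without library B (10.3% and 7.89%). The differences were small: the interval was within 2-fold in 29 of the 30. Mcm3, a subunit of the replicative helicase, had 293, 243, 247 and 234 CPM with antibody and 212, 189, 211 and 187 CPM in the depleted group (log2 0.35 ± 0.12, adjusted p = 0.221), and untreated WT tumours had 201 to 228.5 CPM. Mki67, the proliferation antigen Ki-67, had 211 to 269 CPM against 146 to 204 CPM (0.47 ± 0.17, adjusted p = 0.259), with untreated WT at 130 to 221 CPM. For others library B decided the value. Bub1, a kinase of the spindle checkpoint, had 52.1, 63.9, 55.0 and 91.5 CPM with antibody and 24.2, 114, 44.0 and 20.6 CPM in the depleted group, and its log2 difference was 0.38 with library B and 1.15 without it. With the GC slope 0 of the 30 were called. By library, the list lay at 0.039 to 0.219 relative to the mean with antibody and at -0.18, 0.25, -0.01 and -0.33 in depleted A to D, so that library B lay above all antibody libraries, and without depleted D the median was 0.14.

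Genes of the ribosome and of the respiratory chain had medians below 0. Of 39 cytoplasmic ribosomal proteins, 1 was higher and 12 were lower with antibody at an unadjusted p under 0.05, with a median of -0.31, and 1 was higher and 9 lower without library B, beside 8.37% and 7.89% of all genes lower in these fits. With the GC slope the median was -0.253, and 0 were called higher and 3 lower (0.486% and 0.564% of all genes). Rps21 had 22.7, 31.5, 36.1 and 13.4 CPM with antibody and 49.2, 118, 74.2 and 126 CPM in the depleted group (log2 -1.83 ± 0.42, adjusted p = 0.115). Rpl7 was the gene on the opposite side, with 295, 303, 307 and 151 CPM against 144, 176, 198 and 162 CPM (0.63 ± 0.18, adjusted p = 0.16). Antibody library D was the lowest of the 8 for the list, at -0.84 relative to the mean of the 12 libraries, against -0.11 to -0.067 in antibody A to C and -0.13 to 0.35 in the depleted group, and without it the median was -0.17. Ribosomal protein genes have many processed copies in the genome, and reads of copies and parents may be mixed. Of 37 genes of the respiratory chain, 0 were higher and 9 lower, with a median of -0.23, and 1 was higher and 8 were lower without library B (the same shares of all genes apply). With the GC slope their median was -0.148, and 0 were called higher and 1 lower (0.486% and 0.564% of all genes). Antibody library D was lowest here too, at -0.46 against -0.13 to -0.053 in antibody A to C and -0.049 to 0.20 in the depleted group, and the median without it was -0.15. Cox5b, a subunit of cytochrome c oxidase, had 66.1 to 115 CPM with antibody and 125 to 187 CPM in the depleted group (-0.63 ± 0.23, adjusted p = 0.247).

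Skeletal muscle genes had the lowest median of the lists with at least 5 tested genes, with 15 tested, a median of -0.81, 0 higher and 7 lower at an unadjusted p under 0.05 (8.37% of all genes) and 6 lower without library B (7.89%), and 0 called with the GC slope. Without depleted library D the median was -0.42. They were high in depleted libraries C and D, at 0.85 and 1.21 relative to the mean, against 0.09 and -0.50 in depleted A and B and -0.39 to 0.21 with antibody. Summed over the 25 genes they made 22.7 to 40.0 CPM with antibody, 20.1 to 76.5 CPM in the depleted group and 26.7 to 30.5 CPM in untreated WT tumours. Xirp2, an actin-binding protein of muscle, had 0.249 to 0.325 CPM with antibody and 0.398, 0.447, 3.32 and 2.30 CPM in the depleted group. The share of muscle in these 2 samples and its part in other differences was not tested.

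The median of melanocyte genes was 0.15 over 20 genes, and 19 were bounded within 2-fold. At an unadjusted p under 0.05, 1 was higher and 0 lower (4.66% and 8.37% of all genes). Without library B the median was 0.30 and 3 were called, all higher (10.3% of all genes), and without depleted library D the median was 0.073. Pmel and Mlana, genes of the melanosome, had log2 differences of 0.001 ± 0.146 and 0.003 ± 0.170. Dct, an enzyme of melanin synthesis, had -0.12 ± 0.12. Kit, the receptor of stem cell factor, was the member higher with antibody, at 16.9, 9.15, 11.4 and 10.9 CPM against 8.89, 6.57, 5.64 and 7.53 CPM (0.76 ± 0.22, adjusted p = 0.173), with 7.99 to 9.58 CPM in untreated WT. Tyr and Tyrp1, the tyrosinase of pigment synthesis and its relative, moved with library B. Tyrp1 had 5501 to 6835 CPM with antibody, and 3322, 8080, 4388 and 2653 CPM in the depleted group, so that its log2 difference was 0.37 ± 0.24 with library B and 0.78 without it, where it was called (adjusted p = 0.00732).

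The immune lists given here held no gene called with all libraries, and most genes were bounded loosely. At an unadjusted p under 0.05, 4.66% of all genes were higher with antibody and 8.37% lower, which applies to each list here. Over 42 interferon response genes the median was -0.012, with 1 higher and 0 lower at an unadjusted p under 0.05 and 20 bounded within 2-fold. Over 19 genes of MHC class I and peptide loading it was -0.31 with none on either side, and over 21 macrophage genes 0.22 with none on either side. The macrophage median was -0.010 without depleted library B, 0.63 without depleted library A, 0.06 without antibody library A and 0.77 with the GC slope. MHC class II genes, which mark antigen-presenting cells, had a median of 0.13 over 8 genes, and their medians against untreated WT were -1.10 with antibody and -1.12 with B cell loss. Between the groups it was -0.23 without library B, ran from -0.357 to 0.62 with other libraries left out, and was 0.81 with the slope. Untreated WT library D was high there, at 2.60 relative to the mean against -0.57 to 0.60 in the other 3. Of the regulatory T cell list, 6 genes were tested, with a median of -0.58 and 0 higher and 3 lower at an unadjusted p under 0.05 (4.66% and 8.37% of all genes). These were Foxp3, Il10 and Ikzf4. Of the 6, 1 was called lower without library B (7.89% of all genes) and 1 with the GC slope (0.564%), and 0 were called higher in either fit. Foxp3 lies inside Ppp1r3f for 100% of its span in the table, so its reads cannot be told apart from that gene. Il10, a suppressive cytokine, had 0.973, 1.35, 1.92 and 1.91 CPM with antibody and 1.59, 15.1, 5.36 and 5.43 CPM in the depleted group (log2 -2.14 ± 0.62, adjusted p = 0.166), -1.44 without library B and -0.063 in the table of the authors. Il6, an inflammatory cytokine, had 13 counts with antibody and 57 in the depleted group (-2.27 ± 0.62, adjusted p = 0.133).

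**Figure D5:**
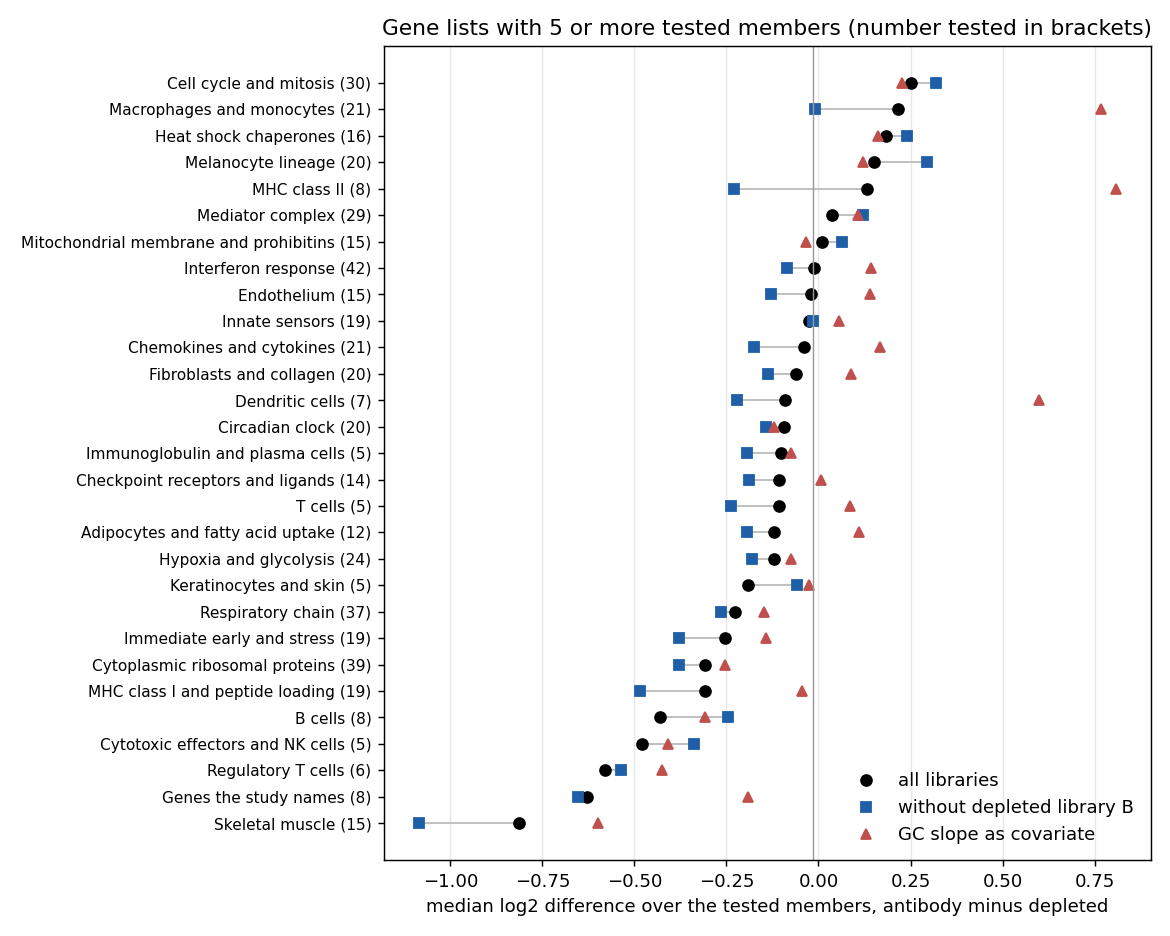
Median log2 difference (WT anti-PD-L1 minus B cell-depleted untreated) over the tested members of each gene list with at least 5 tested genes, with the number tested in brackets. Black circles are all libraries, blue squares the fit without depleted library B and red triangles the fit with the GC slope, and the grey line is the median of all genes (-0.016). Cell cycle genes lie at 0.25, ribosomal proteins at -0.31 and skeletal muscle genes at -0.81.

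Genes that the study names were read last. Of the 14, 8 had enough counts to be tested, and none was called with all libraries. Lag3, an inhibitory receptor of T cells, had 0.144, 0.276, 0.345 and 0.180 CPM with antibody and 0.796, 0, 0.470 and 0.546 CPM in the depleted group, where library B held no count. Its log2 difference was -0.99 with an interval of -2.10 to 0.13 (adjusted p = 0.433), and without library B it was -1.32 (adjusted p = 0.0249). With the GC slope it was -0.20 (adjusted p = 0.884), and with both changes -0.97 (adjusted p = 0.489). Ccl5, a chemokine that draws T cells, had 1.37 to 2.18 CPM with antibody and 4.47, 1.15, 2.32 and 5.89 CPM in the depleted group (-0.98, interval -1.91 to -0.044, adjusted p = 0.359), and -1.26 without library B (adjusted p = 0.036). With the GC slope Ccl5 was at -0.41 (adjusted p = 0.612), and with both changes at -0.58 (adjusted p = 0.716). Ido2, an enzyme of tryptophan breakdown, had 0.307 to 0.497 CPM against 0.191 to 1.06 CPM (-0.70, interval -1.58 to 0.19, and -0.14 with the GC slope). Nlrp10, of the family of innate sensors, had 0.469 to 1.16 CPM against 1.19 to 1.87 CPM without overlap (-0.79, interval -1.56 to -0.030, adjusted p = 0.362). Cd274, which encodes PD-L1 itself, had 4.83, 5.53, 5.56 and 8.88 CPM with antibody and 4.73, 6.06, 4.61 and 5.12 CPM in the depleted group, and its difference was bounded between -0.29 and 0.85. Vegfa, the angiogenic growth factor, was bounded between -0.66 and 0.19, and Cd40, the co-stimulatory receptor of B cells and other antigen-presenting cells, between -1.06 and 1.07. Tigit had 13 and 5 counts over the 4 libraries of each group, Il1rl1 14 and 29, Cxcl13 4 and 2 and Ifng 4 and 2, too few to be tested.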

How the data were processed

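Total RNA of 16 B16 tumours was sequenced after removal of ribosomal RNA. The authors deposited raw counts of reads per gene, made by a sequencing service on build mm10, which cover the whole span of each of 38087 genes with introns. For aligner, counter and annotation release, names and versions were not given in the sources used here. Strand was not used, and 14522 spans (38.1%) overlap another gene, whose shared reads are listed for both. The deposited count table also gives the GC content of each gene span in percent. The authors also deposited normalized log2 values, centred on the median of each gene; DESeq is named for them without a version, 13 cells were damaged, and 18860 genes were tested. Their tables of fold changes and gene set results were not used, nor were 32 further columns of per-library coverage.

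Counts of all 16 libraries were fitted in edgeR 4.0.16 (R 4.3.3) with TMM factors, filterByExpr (19340 genes kept), a coefficient per group and the robust quasi-likelihood F test, two-sided, with Benjamini-Hochberg adjustment at 0.05. Every adjusted p without another tool named comes from this test, ± after a log2 difference is its SE, and intervals are 95%. Alternatives were DESeq2 1.42.0, limma 3.58.1 (voom, with and without quality weights, and the log2 values), other scaling and filters, the GC slope of each library as covariate, the 8 libraries alone, a block by column letter and leaving out each library. Fits that combine the loss of depleted library B with another change, and the 8 libraries with the GC slope, were added after the data were seen. Counts simulated with known changes were used to test the fits. Exact permutation tests used scipy 1.17.1.

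The rule for named genes took the 12 genes with the largest change in each direction among called protein-coding genes with no overlap between groups, at least 1 CPM and under 50% of the span in other genes, plus called list members and the genes the study names. It called none, so the lowest p took the place of the call. The comparison, its members and the 31 gene lists were chosen with earlier results of these data known. The groups are 4 mice each, and edgeR p-values set a difference against the spread between tumours within groups, estimated over all 16 libraries. Some results are not reported here.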

Additional observations from a re-analysis of the deposited data

Results flagged for a closer look

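In 3 of the 64 groups of 4 libraries examined for the named genes, 1 library lay far from the other 3, as judged by its gap relative to the range of the group (Dixon's ratio, above its 95% critical value), and chance gives about 1 such group in 20. For Izumo4, depleted library B had 1.02 CPM and the others 1.86 to 2.07 CPM (ratio 0.844 on the log2 scale). For Tmem63c, depleted library D had 20.04 CPM and the others 7.78 to 8.09 CPM (0.958). For Rnls, antibody library A had 4.47 CPM and the others 6.72 to 7.25 CPM (0.842).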

How the results depend on the processing

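The number of genes called between antibody alone and B cell loss alone was 0 with all libraries and stayed 0 with voom, other size factors, other filters, the 8 libraries alone and the replicate block by column letter. It was 384 with DESeq2, 5474 with voom and quality weights, 203 with the GC slope, 102 with the GC slope in the 8 libraries alone, and 2 in the log2 table (Serpina1b and AC122863.1, both lower with antibody). It ranged from 0 to 3527 when 1 library was left out. Without depleted library B it was 4496 with DESeq2, 3844 with voom, 4 in the 7 libraries compared, 2280 in the log2 table and 0 with the GC slope. Antibody against untreated WT had 1 called gene, and 1750 with DESeq2, 20 with voom, 6265 with quality weights, 0 with upper quartile factors, 4 with no filter (Stoml2, Comtd1, Gm14078 and 4933408J17RIK), 7 with a filter of 1 CPM, 5378 in the libraries compared, and 0 with the GC slope, with the slope in the libraries compared, with the block or in the log2 table. Leaving out 1 library gave 0 to 4234, and without depleted library B DESeq2 gave 5241, voom 4295, the log2 values 2449 and the GC slope 0. The fit on the libraries compared does not hold depleted library B, so its 5378 is the same fit either way. B cell loss against untreated WT had 172 called genes, and 990 with DESeq2, 1827 with quality weights, 0 in the libraries compared, 814 with the GC slope, 2097 with the slope in the libraries compared, 66 with the block and 45 in the log2 table. Leaving out 1 library gave 22 to 358, and without depleted library B the GC slope gave 812, DESeq2 922, voom 281, the libraries compared 474 and the log2 values 29. The cause of these shifts was not tested.

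Whether letters pair the libraries could not be decided from 4 pairs. The correlation of deviations was 0.400, -0.256, 0.096 and -0.422 for A to D, and 2 of 4 libraries correlated best with their own letter. With the replicate block, 0 genes were called between the groups (2194 at an unadjusted p under 0.05). The Igkc difference ran from 0.1631 to 0.3105 CPM when 1 library was left out, where the lowest p allowed is 0.0571.

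List medians moved beyond the spread between libraries in few cases: B cells -0.142 with a filter of 1 CPM, cytotoxic cells -0.059 without library B in voom, MHC class II -0.962, chemokines -0.463, innate sensors -0.219, keratinocytes 0.046 and Mediator 0.240 with quality weights, and dendritic cells 0.599 and the genes the study names -0.192 with the GC slope. With the slope in the 8 libraries alone they were 0.907 for macrophages, 0.694 for dendritic cells, 0.137 for adipocytes, -0.392 for regulatory T cells and -0.158 for the genes the study names. Without library B and with the slope they were 0.342 for chemokines, -0.330 for regulatory T cells and 0.134 for Mediator, which voom without library B put at 0.127. Regulatory T cells were at -0.253 in the log2 table and at -0.667 to -0.398 with 1 library left out.

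Directions turned for Gnb1l in the log2 table (-0.141, and -0.324 without library B) and for Cd274 without library B and with the slope (-0.125). Cd40, at 0.005, turned with quality weights (-0.126), upper quartile factors (-0.034) and the block (-0.127), and without library B in DESeq2 (-0.175), voom (-0.173), the libraries compared (-0.180) and the log2 table (-0.131), and ran from -0.178 to 0.464 with 1 library left out. For B cell loss against untreated WT the log2 table turned Lrrc66 (0.160, and 0.214 without library B), Pla2g4e (0.586 and 0.923), C230081A13Rik (0.246 and 0.278), Sectm1a (-0.100 and -0.088) and Cdk8 (0.026). Depth left 8 of 15 B cell, 5 of 17 T cell and 2 of 12 neutrophil genes with enough counts to be tested.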
